A study of Mus musculus with 9 samples.

Results

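The liver response to an extract of ginseng flower buds was described in mice on a high-fat diet, by comparing the 3 arrays of mice given the extract with the 3 arrays of mice on the same diet without it. All genes that the array annotation tied to probe sets with 1 symbol were compared, 22180 genes from 23521 of the 41345 probe sets, and the probe set with the highest mean over the 9 arrays of the series stood for each gene. The mice were of the strain C57BL/6 in the growth protocol (C56BL/6J in the strain field) and 5 weeks old at the start. The high-fat diet group received vehicle by mouth, and the extract group received the same diet and a daily 500 mg/kg dose of the extract, both over 12 weeks. A regular-diet group of 3 arrays, also given vehicle, served for reference levels. Livers were taken after an overnight fast in all groups, so the values describe the fasted liver, and the labels give neither the sex of the mice nor the fat content of the diet. Whether every array stands for its own mouse is not said, so the spread behind the p-values may be technical.

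Ginseng flower buds are rich in ginsenosides, the triterpene saponins of the ginseng plant. In a liver that receives more fat than it burns or exports, triglyceride is stored in droplets coated by perilipins and CIDE proteins, macrophages take up lipid and debris, hepatocytes release acute-phase proteins, and stellate cells can lay down collagen. Hepatocytes also clear foreign compounds with esterases, cytochromes P450 and conjugating enzymes, many of them controlled by nuclear receptors.

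Values are log2 expression after robust multi-array averaging, so a difference of 1 is a 2-fold difference, and array values are given in the order of replicates 1, 2 and 3. Differences are extract minus high-fat diet with their standard error from limma, and adjusted p-values are Benjamini-Hochberg over all 22180 genes. The gene lists were written with earlier results of these data known, so their counts and medians are not independent of those results. Array medians lay between 4.72 and 4.77, and the correlation of 2 arrays over all genes was 0.992 to 0.994 for arrays of 1 group and 0.992 to 0.993 for arrays of different groups. The median gene mean of 4.74 is used as a level below which signal is not told from background. It is a chosen level, not a measured one, and under, below or near background means relative to it. The liver identity of the samples was clear from 11 hepatocyte markers, which averaged 11.20 to 11.31 on the high-fat diet and 11.24 to 11.41 with extract, with albumin (Alb) at 13.50 to 13.57 in these 6 arrays.

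Across all genes the 2 groups were close, and 1 gene, the carboxylesterase gene Ces2a, passed an adjusted p of 0.05 (0.00451% of the genes tested). Higher values with extract were found for 10959 genes and lower values for 11203, with a median difference of -0.0015, and 5% of genes lay below -0.24 and 5% above 0.23. All 3 extract arrays lay above all 3 high-fat diet arrays for 981 genes (4.42%), and below them for 1169 genes (5.27%). At an unadjusted p under 0.05 there were 573 genes higher and 754 lower, together 1327 of the 22180 tested. With no differences at all, about 5% of genes would be expected under 0.05. Counts of list members at this p are to be read beside these numbers. Differences of more than 2-fold were seen for 27 genes, and in 19 of them the groups did not overlap, 4 higher and 15 lower with extract. The larger differences therefore lay mostly on the lower side, and the plot of all genes names several of them.

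**Figure D1:**
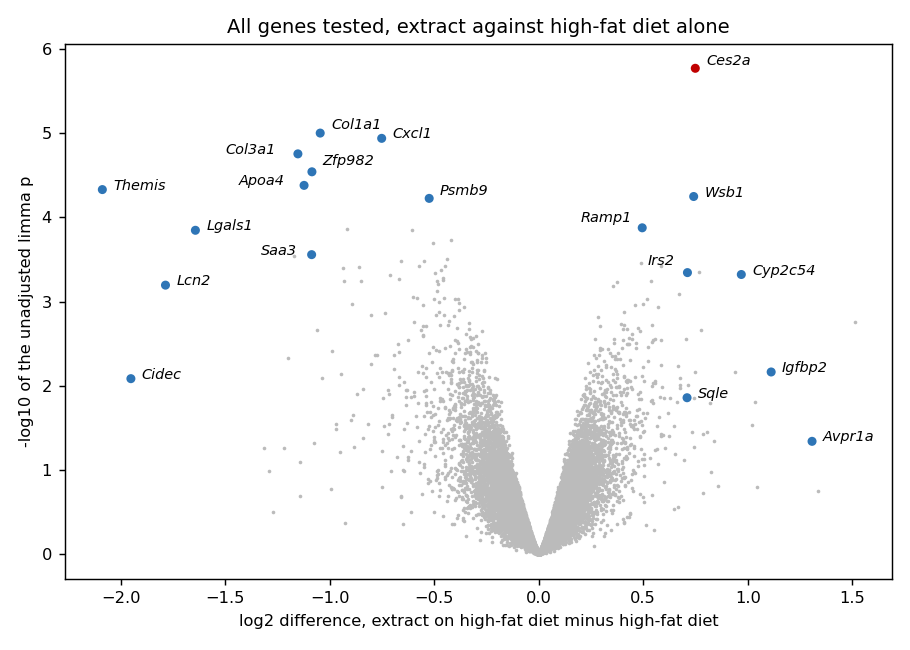
Each point is 1 of 22180 genes, placed by its log2 difference (extract on the high-fat diet minus high-fat diet alone) and by the minus log10 of its unadjusted limma p. Ces2a, in red, is the gene that passed after adjustment, and the blue points are genes named in the text, with Themis at -2.09 and Avpr1a at 1.31 near the edges.

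Ces2a encodes a liver carboxylesterase that hydrolyses ester and amide bonds in foreign compounds and in neutral lipids. Its values were 9.02, 9.16 and 9.02 on the high-fat diet, against 9.76, 9.87 and 9.81 with extract. The regular-diet arrays read 9.29, 9.34 and 9.28, so all 3 extract arrays lay above the other 6. Ces2a rose 1.68-fold (0.75 ± 0.07, n = 3 per group, limma adjusted p = 0.0376), the mean going from 9.07 ± 0.08 to 9.82 ± 0.06 (SD). Against the regular diet the extract group stood 0.51 ± 0.07 higher (limma adjusted p = 0.0224, with 0.442% of genes passing in that comparison), and the high-fat diet group 0.23 ± 0.07 below it at an adjusted p of 0.17 (1.34% passing). The size of the rise stayed between 0.72 and 0.80 when any 1 array was left out, but the adjusted p then ran from 0.0529 to 0.368, and it was 0.256 when only the 6 arrays were fitted. The Ces2 genes are close copies of each other, so part of the signal may come from a relative.

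The 250 bases before the RefSeq start of Ces2a are printed because this is the gene that passed. They lie at chr8:104733753-104734002 on the plus strand of GRCm38.p6, and the capitals mark the letters AGGTCA, the binding half-site shared by many nuclear receptors, searched on both strands.

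Ces2a: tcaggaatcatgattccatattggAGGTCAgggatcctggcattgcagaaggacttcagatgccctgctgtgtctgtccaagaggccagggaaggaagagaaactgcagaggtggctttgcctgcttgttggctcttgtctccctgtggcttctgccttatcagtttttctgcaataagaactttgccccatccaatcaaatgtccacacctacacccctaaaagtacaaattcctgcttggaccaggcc

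The match starts 226 bases before the gene start. A gene was counted if any of its promoter windows of this length held the letters. They occur for 15.8% of the 27025 genes with such a window in the RefSeq table. Among carboxylesterase genes with a window they occur for 3 of 14 (21.4%), and among cytochrome P450 genes and receptors for 10 of 27 (37.0%). A match describes the sequence only.

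Its relatives did not follow Ces2a as a family. Of 19 measured carboxylesterases, 9 were higher and 10 lower with extract, and the median difference was -0.0004, beside -0.0015 for all genes. No member but Ces2a passed, and at an unadjusted p under 0.05 there were 1 higher and 3 lower. Without overlap, 3 were higher (15.8%, beside 4.42% of all genes) and 2 lower (10.5%, beside 5.27%). Ces2e, a neighbour of Ces2a in the same gene cluster, read 9.08, 9.24 and 9.23 on the high-fat diet and 8.83, 8.85 and 8.80 with extract, and 8.54, 8.36 and 8.07 on the regular diet. Its difference of -0.35 ± 0.11 did not pass (limma adjusted p = 0.722), and the groups did not overlap. Ces2g was also lower in every extract array (7.31, 7.51 and 7.24 against 7.58, 7.95 and 7.80, -0.42 ± 0.17, limma adjusted p = 0.802). Ces1c, a plasma esterase of mice and one of the brightest members, was higher in every extract array by 0.21 ± 0.14, and Ces2f lay under background in all 9 arrays. Ces1d, known as a triglyceride hydrolase of the liver, differed by -0.12 ± 0.26.

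Several cytochrome P450 genes stood higher with extract. Of 30 measured P450 genes and receptors, 18 were higher and 12 lower with a median of 0.06, and 7 (23.3%, beside 4.42% of all genes) lay above the high-fat diet in every extract array while 0 lay below. No member passed, and at an unadjusted p under 0.05 there were 5 higher and 1 lower. Cyp2c54, a member of the fatty acid and drug oxidising Cyp2c family, read 9.99, 10.54 and 9.74 on the high-fat diet and 11.07, 11.06 and 11.05 with extract. Regular-diet values were 10.04, 9.72 and 9.64, so the extract arrays were the 3 highest of the 9, and they spread far less than the high-fat diet arrays. The difference was 0.97 ± 0.18 (limma adjusted p = 0.325). Cyp2c37 (9.83, 10.52 and 9.72 against 10.90, 10.86 and 10.64, 0.78 ± 0.19) was also highest in the 3 extract arrays, over regular-diet values of 10.30, 10.25 and 10.14. The Cyp2c genes are close copies, so their probe sets may share signal.

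Cyp3a11, the main drug-metabolising Cyp3a enzyme of mouse liver and a textbook target of the pregnane X receptor, read 8.95, 9.86 and 9.60 without extract and 10.20, 10.28 and 10.16 with it (0.75 ± 0.22, limma adjusted p = 0.693). Its regular-diet arrays were 9.83, 9.74 and 10.25, the last of them above extract replicates 1 and 3. Cyp1a2, which the aryl hydrocarbon receptor controls, was 10.43, 10.39 and 10.30 against 10.81, 11.05 and 10.73 (0.49 ± 0.18), beside 10.30, 9.94 and 9.45 on the regular diet. Cyp2b10, a textbook target of the constitutive androstane receptor, rested below background on the high-fat diet at 3.997, 4.28 and 4.28 and stood at 4.64, 5.08 and 5.88 with extract (1.02 ± 0.40, limma adjusted p = 0.802). Its regular-diet arrays were 4.45, 4.85 and 3.30, so regular-diet replicate 2 lay above extract replicate 1. Its relative Cyp2b9 was scattered, at 6.52, 11.37 and 10.41 without extract and 9.08, 9.14 and 7.30 with it, and its difference of -0.93 ± 1.10 became 0.04 without high-fat diet replicate 2. The receptor genes themselves differed little, Nr1i2 and Nr1i3 by -0.06 and -0.11 and Ahr by 0.24. High-fat diet replicate 1 was low for many of these genes (list median -0.16 relative to the group mean), and without it the list median was -0.02, against 0.14 without high-fat diet replicate 2.

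**Figure D2:**
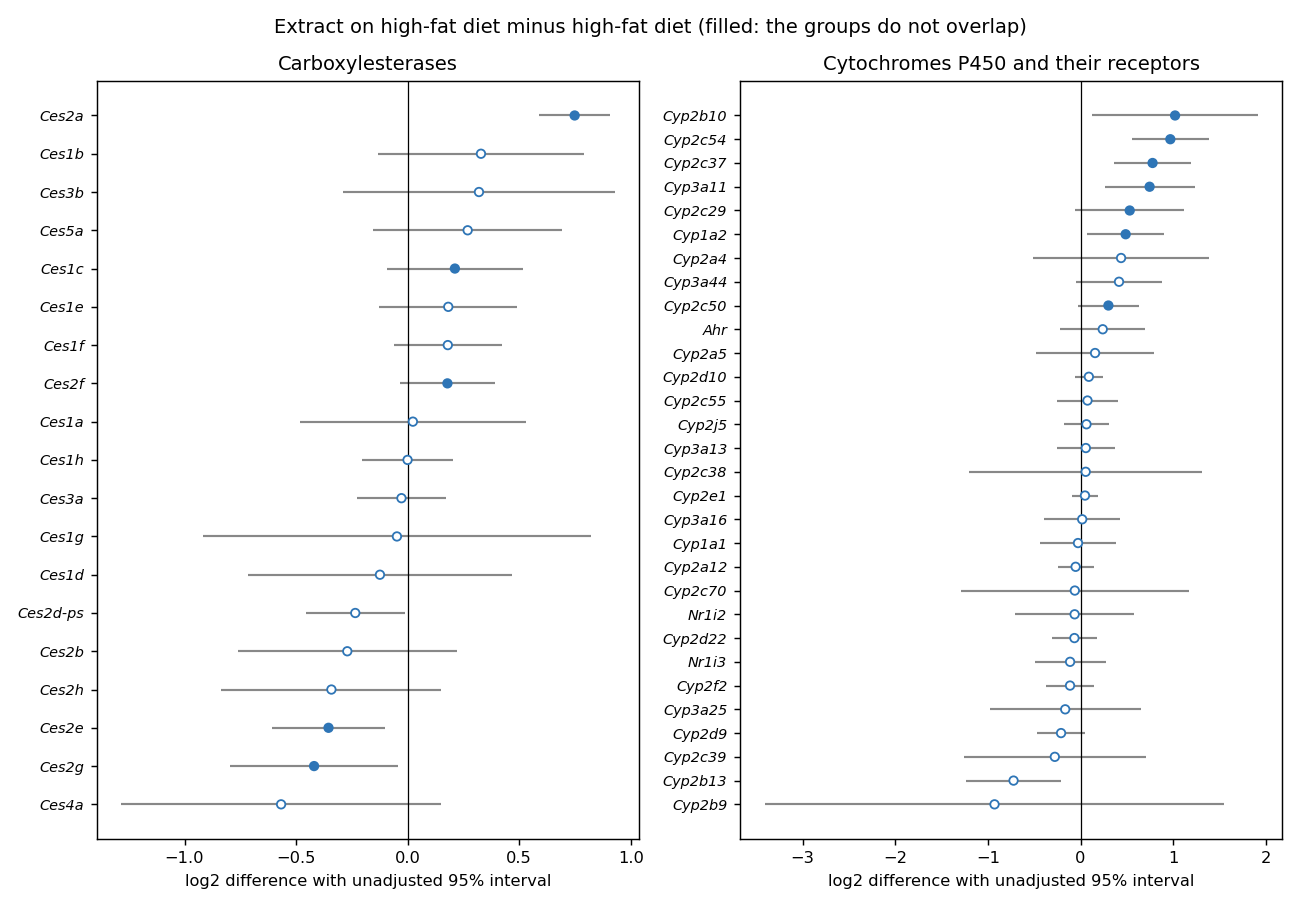
Log2 differences (extract on the high-fat diet minus high-fat diet) of 19 carboxylesterases, left, and 30 cytochrome P450 genes and their receptors, right, with unadjusted 95% intervals from limma. Filled points are genes whose 3 arrays of one group all lie above the 3 of the other, 3 higher and 2 lower among the esterases and 7 higher among the P450 genes.

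Conjugating enzymes were mixed. Of 25 measured phase II genes, 8 were higher and 17 lower (median -0.10, or -0.01 without high-fat diet replicate 2). Without overlap, 3 were higher (12%, beside 4.42% of all genes) and 1 lower (4%, beside 5.27%). None passed the adjusted threshold (3 higher and 1 lower at an unadjusted p under 0.05). Sult1a1, a phenol sulfotransferase, read 9.80, 10.36 and 9.98 without extract and 10.52, 10.68 and 10.43 with it (0.49 ± 0.14). Tpmt, thiopurine methyltransferase, went the other way, from 8.79, 8.97 and 9.09 to 8.55, 8.52 and 8.56, a difference of -0.41 ± 0.09 (limma adjusted p = 0.477) that left the extract arrays between the high-fat diet arrays and the regular-diet arrays at 8.18, 8.36 and 8.36. Hepatocyte markers beside these genes were higher in 8 of 11 cases, with a median of 0.09, and their part in the P450 values was not tested.

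Genes of the lipid droplet and of fat uptake were mostly lower with extract. Of 22 measured genes, 18 were lower and 4 higher (median -0.28), and 8 (36.4%, beside 5.27% of all genes) lay below all high-fat diet arrays in every extract array. The 1 gene above them in every extract array is 4.55% of the list, beside 4.42% of all genes. None passed, with 8 lower and 0 higher at an unadjusted p under 0.05. Cidec, a protein that enlarges lipid droplets, read 7.17, 7.47 and 8.41 on the high-fat diet and 5.53, 5.43 and 6.23 with extract, where regular-diet arrays were scattered at 6.83, 8.52 and 9.42. All 3 extract arrays were therefore below the other 6, with a difference of -1.95 ± 0.58 that did not pass (limma adjusted p = 0.702).

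Perilipins coat the droplet surface. Plin2, the perilipin of fat-laden hepatocytes, was 10.69, 10.39 and 10.45 without extract and 9.86, 9.73 and 10.26 with it (-0.55 ± 0.14, limma adjusted p = 0.574). Plin4 was 6.83, 7.52 and 7.28 against 6.47, 6.23 and 6.26 (-0.89 ± 0.19, limma adjusted p = 0.422), with regular-diet arrays at 5.52, 5.83 and 6.13. The extract arrays of Plin4 lay between the other groups, whereas those of Plin2 were near or below the regular-diet values of 10.33, 10.25 and 10.33. Fitm1, which takes part in droplet formation, showed the order of Plin4 at 10.14, 10.18 and 10.39 against 9.70, 9.53 and 9.68 (-0.60 ± 0.13, limma adjusted p = 0.400), over regular-diet values of 8.71, 9.10 and 9.16.

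Cd36, the fatty acid translocase, read 9.21, 10.07 and 9.86 on the high-fat diet and 9.14, 8.19 and 8.85 with extract (-0.99 ± 0.26, limma adjusted p = 0.606). The lowest high-fat diet array and the highest extract array of Cd36 were close. Pparg, the nuclear receptor that drives such genes in fatty liver, was 6.98, 7.41 and 7.63 against 6.98, 6.84 and 6.47 (-0.58 ± 0.20), and these groups touched. Markers of white fat were measured beside these genes. Of 9 white adipose markers 7 were lower and 2 higher (median -0.07), their mean was 6.36 to 6.40 without extract and 6.20 to 6.34 with it, and Adipoq and Lep lay under 4.74 in all arrays. Their part in the lipid storage values was not tested.

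Fatty acid and triglyceride synthesis genes had mostly small differences. Of 20 measured genes 15 were lower and 5 higher (median -0.07). Without overlap, 3 were lower (15%, beside 5.27% of all genes). None passed (4 lower at an unadjusted p under 0.05). Acacb, the acetyl-CoA carboxylase that makes malonyl-CoA at mitochondria, was 6.52, 6.46 and 6.52 without extract and 6.05, 6.24 and 5.90 with it (-0.44 ± 0.10, limma adjusted p = 0.537), and its regular-diet arrays were higher at 7.03, 7.03 and 6.80. Gpam, the first enzyme of glycerolipid synthesis, was lower in every extract array by 0.21 ± 0.07 on the log2 scale. The largest difference on the list was that of Thrsp, a regulator of lipogenesis, at 8.76, 10.06 and 10.60 against 8.53, 9.46 and 8.58 (-0.95 ± 0.45, limma adjusted p = 0.845), and its groups overlapped. The central genes of lipogenesis had values close to 0, with Fasn at 0.04 ± 0.28, Scd1 at -0.14 ± 0.22 and the transcription factor Srebf1 at -0.23 ± 0.26.

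Oxidation genes did not move as a group. Of 22 measured genes for burning fatty acids and PPAR-alpha targets, 10 were higher and 12 lower (median -0.03), and none passed (2 higher and 0 lower at an unadjusted p under 0.05). Those 2 were Acot1, an acyl-CoA thioesterase, at 7.82, 7.53 and 7.13 against 7.96, 7.83 and 8.11 (0.47 ± 0.15), and Cyp4a14, an omega-hydroxylase, at 11.85, 12.24 and 11.39 against 12.51, 12.26 and 12.34 (0.55 ± 0.19). Both are textbook PPAR-alpha targets with near-identical relatives, and both stayed below their regular-diet arrays, the lowest of which were 9.23 and 12.65. Cpt1a, the gate of fatty acid entry into mitochondria, differed by -0.13 ± 0.13.

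Apolipoproteins are the protein parts of lipoprotein particles. Of 15 measured genes of apolipoproteins and lipid export, 7 were higher and 8 lower with extract (median -0.01). Without overlap, 1 was higher (6.67%, beside 4.42% of all genes) and 2 lower (13.3%, beside 5.27%). No gene of this list passed (1 higher and 2 lower at an unadjusted p under 0.05). Apoa4, made by the liver when it stores fat or fasts, was 12.07, 12.44 and 12.45 on the high-fat diet and 11.03, 11.20 and 11.36 with extract. Regular-diet arrays read 12.61, 12.85 and 13.13, so this gene was lowest in all 3 extract arrays and highest on the regular diet. The difference was -1.12 ± 0.16 (limma adjusted p = 0.146). Apoc2, the cofactor of lipoprotein lipase, was 9.94, 10.08 and 9.91 against 9.53, 9.60 and 9.55 (-0.42 ± 0.07, limma adjusted p = 0.292). Apom, carried on HDL, went up from 7.73, 7.71 and 7.60 to 8.04, 8.13 and 7.999 (0.38 ± 0.07, limma adjusted p = 0.325), short of its regular-diet arrays at 8.33, 8.24 and 8.38. Apob, Apoa1 and Mttp, which form the particles, differed by -0.01, 0.11 and 0.03.

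All 16 measured genes of cholesterol synthesis were higher with extract, with a median of 0.28, but their arrays overlapped for 14 of them. The 2 without overlap are 12.5% of the list, beside 4.42% of all genes. None passed (3 higher at an unadjusted p under 0.05). Sqle, squalene epoxidase, was 7.37, 7.65 and 6.79 without extract and 7.79, 8.37 and 7.77 with it (0.71 ± 0.23, limma adjusted p = 0.728), over background-level regular-diet arrays of 4.53, 4.25 and 4.69. Cyp51, lanosterol demethylase, was 7.88, 8.37 and 7.52 against 8.51, 8.85 and 8.36 (0.65 ± 0.25). Stard4, a sterol carrier induced with this pathway, was 7.51, 7.54 and 7.28 against 8.27, 8.42 and 7.74 (0.70 ± 0.17, limma adjusted p = 0.574) and did not overlap. It belongs to a separate list of sterol sensing and uptake, of which 8 were higher and 5 lower of 13 (median 0.09). The genes of this pathway varied together from array to array. Relative to the high-fat diet mean, the median of the 16 genes was -0.18, 0.39 and -0.21 in the high-fat diet arrays and 0.25, 0.51 and 0.06 with extract, and the median difference was 0.51 once high-fat diet replicate 2 was dropped. It was 0.16 with high-fat diet replicate 1 dropped, 0.17 with replicate 3 of that diet dropped and 0.16 with extract replicate 2 dropped.

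Bile acid genes gave 13 higher and 7 lower of 20 (median 0.03, or -0.04 without high-fat diet replicate 1), and none passed (2 higher and 1 lower at an unadjusted p under 0.05). Cyp27a1, the sterol 27-hydroxylase of the acidic pathway, was 10.06, 10.06 and 9.98 without extract and 10.41, 10.54 and 10.16 with it (0.34 ± 0.11). Cyp7a1, the rate-limiting enzyme of the classic pathway, ranged from 9.54 to 11.13 without extract and from 10.54 to 11.30 with it, a difference of 0.42 ± 0.44 within the spread of the arrays.

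Irs2, the insulin receptor substrate that carries much of the insulin signal in liver, was the leading gene of the insulin list. It read 5.98, 6.06 and 6.00 on the high-fat diet, 6.45, 6.83 and 6.90 with extract and 6.81, 7.19 and 6.89 on the regular diet. Extract arrays were above all high-fat diet arrays and reached the range of the regular diet in 2 of 3, and the difference was 0.71 ± 0.13 (limma adjusted p = 0.325). Igfbp2, a binding protein of insulin-like growth factors, showed the same order at 9.07, 8.43 and 8.55 against 9.36, 9.94 and 10.09 (1.11 ± 0.32, limma adjusted p = 0.693), with regular-diet arrays at 9.91, 10.93 and 11.14. Of 19 measured genes of insulin signalling and the IGF axis, 14 were higher and 5 lower. The median was 0.08, or 0.03 without high-fat diet replicate 3. Without overlap, 4 were higher (21.1%, beside 4.42% of all genes). None passed (3 higher and 1 lower at an unadjusted p under 0.05). Insr, the receptor, and Igf1 were the other 2 without overlap, at 0.11 ± 0.08 and 0.18 ± 0.08.

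Gluconeogenic genes had no common direction, with 6 higher and 9 lower of 15 (median -0.03) and none past the threshold (1 higher and 1 lower at an unadjusted p under 0.05). Pck1, the key enzyme of glucose production, was 11.21, 11.63 and 11.54 without extract and 11.08, 11.55 and 12.29 with it (0.18 ± 0.26). Got1, an aspartate aminotransferase, was 8.56, 8.96 and 9.10 against 9.36, 9.51 and 10.27 (0.84 ± 0.36, limma adjusted p = 0.829), below its regular-diet arrays of 10.07, 11.09 and 11.56 in all but extract replicate 3. In amino acid breakdown and the urea cycle 12 of 16 genes were higher. The median was 0.15, or 0.05 without high-fat diet replicate 1 and 0.10 without extract replicate 3. Without overlap, 4 were higher (25%, beside 4.42% of all genes). None passed (3 higher at an unadjusted p under 0.05). Cps1, the first enzyme of the urea cycle, was 11.79, 11.82 and 11.93 against 12.26, 12.17 and 12.13 (0.34 ± 0.10), and Agxt, which detoxifies glyoxylate, was 8.82, 8.73 and 9.12 against 9.57, 9.20 and 9.23 (0.44 ± 0.17).

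Acute-phase genes, the secretory output of hepatocytes in inflammation, were lower in 15 of 22 cases (median -0.13), 5 without overlap (22.7%, beside 5.27% of all genes). None passed, with 5 lower and 0 higher at an unadjusted p under 0.05. Lcn2, lipocalin 2, which binds bacterial siderophores, read 8.62, 8.31 and 8.37 on the high-fat diet, 6.11, 6.28 and 7.56 with extract and 5.57, 6.20 and 5.34 on the regular diet. The difference was -1.79 ± 0.35 (limma adjusted p = 0.336), and extract replicates 1 and 2 were close to the regular diet while extract replicate 3 was between the groups. Saa3, a serum amyloid A made by many cell types, was 7.52, 6.89 and 6.89 against 5.88, 6.37 and 5.80 (-1.09 ± 0.19, limma adjusted p = 0.325), with regular-diet arrays at 5.86, 5.75 and 5.70. Steap4, a metalloreductase induced in inflammation, was 9.39, 8.98 and 9.02 against 8.56, 8.45 and 8.39 (-0.67 ± 0.13, limma adjusted p = 0.325).

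Extract replicate 3 stood apart for part of this list. Saa2 and Orm2, chosen after their values were seen, were 9.68, 9.21 and 9.23 and 8.68, 8.83 and 9.08 on the high-fat diet. With extract they were at 6.78 and 7.09 for Saa2 and at 6.47 and 6.58 for Orm2 in replicates 1 and 2, but at 10.44 and 9.68 in replicate 3, above every high-fat diet array. Over the list, the median relative to the high-fat diet mean was -0.19, -0.22 and 0.02 in the 3 extract arrays. Leaving out extract replicate 3 gave a list difference of -0.20, and leaving out extract replicate 2 or high-fat diet replicate 1 gave -0.08 and -0.04. The serum amyloid A and orosomucoid genes are near copies, so probe sets may share signal.

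Cxcl1, a chemokine that draws neutrophils, was the leading inflammatory gene. Its arrays read 6.30, 6.10 and 6.20 on the high-fat diet and 5.33, 5.42 and 5.59 with extract, next to 5.40, 5.39 and 5.30 on the regular diet. Extract arrays were thus in or just above the regular-diet range and well apart from the high-fat diet, with a difference of -0.75 ± 0.09 that missed the threshold (limma adjusted p = 0.0851). It passed among genes above the median brightness and with array weights (limma adjusted p = 0.0318 and 0.0470). Cxcl1 did not pass in a fit of only the 6 arrays compared, or with any 1 array left out. Its promoter is printed for the letters GGAATTTCC, a form of the NF-kappaB element, in capitals. The window lies at chr5:90890995-90891244 on the plus strand of GRCm38.p6 in the RefSeq table, and the match starts 70 bases before the gene start.

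Cxcl1: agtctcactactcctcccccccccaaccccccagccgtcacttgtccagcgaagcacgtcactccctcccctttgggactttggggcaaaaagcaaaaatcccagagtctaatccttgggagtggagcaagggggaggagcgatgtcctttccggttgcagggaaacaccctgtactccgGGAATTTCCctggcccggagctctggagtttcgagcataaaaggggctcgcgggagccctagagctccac

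On either strand these letters were found for 0.344% of all genes with a promoter window. Among cytokine and chemokine genes with a window they were found for 3 of 22 (13.6%). A match describes the sequence only. The cytokine list as a whole was even, with 15 higher and 15 lower of 30 (median 0.01). None passed the threshold (2 higher and 2 lower at an unadjusted p under 0.05). Without overlap, 1 was higher (3.33%, beside 4.42% of all genes) and 2 lower (6.67%, beside 5.27%). Cxcl9, an interferon-gamma-induced chemokine for T cells, was the other lower one at 7.07, 8.14 and 7.52 against 6.66, 6.94 and 6.59 (-0.84 ± 0.26, limma adjusted p = 0.720). Tnf and Il6 were under background in all 9 arrays, as were 10 of the 30 genes, and Ccl2, which recruits monocytes, was 4.82, 5.49 and 4.65 against 4.63, 4.31 and 4.81 (-0.40 ± 0.23). Genes of NF-kappaB and Toll-like receptor signalling were lower in 16 of 21 cases (median -0.07), 3 without overlap (14.3%, beside 5.27% of all genes). None of these genes passed the threshold (1 higher and 2 lower at an unadjusted p under 0.05).

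The interferon-induced genes were the list with the lowest median of all. Like the other lists, this one was chosen with earlier results of these data known. Of 23 measured genes 22 were lower with extract and Oas3 was higher (median -0.39), and in 16 of them (69.6%, beside 5.27% of all genes) every extract array lay below every high-fat diet array. None passed the adjusted threshold, and 12 were lower and 0 higher at an unadjusted p under 0.05. Psmb9, an immunoproteasome subunit that prepares peptides for MHC class I, had the smallest p of the list. It was 6.92, 7.01 and 6.96 on the high-fat diet, 6.32, 6.47 and 6.52 with extract and 6.64, 6.68 and 6.58 on the regular diet, a difference of -0.52 ± 0.08 (limma adjusted p = 0.146) that put the extract arrays lowest of the 9.

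Gbp10, a guanylate-binding protein of cell-autonomous defence, was the brightest of these 16, at 10.10, 10.14 and 10.03 against 9.13, 9.05 and 9.18 (-0.97 ± 0.38, limma adjusted p = 0.802). Its regular-diet arrays were far lower, at 8.53, 7.03 and 6.70. Isg15, a ubiquitin-like modifier, was 6.79, 6.64 and 6.92 against 6.19, 6.03 and 6.58 (-0.52 ± 0.24), and Oasl2, an oligoadenylate synthetase-like protein, was 5.55, 5.74 and 5.87 against 5.38, 5.11 and 5.20 (-0.49 ± 0.13). Extract arrays of both were between the high-fat diet arrays and the lowest regular-diet array. Gbp3 was 5.48, 5.56 and 5.13 against 4.72, 4.65 and 5.01 (-0.59 ± 0.14, limma adjusted p = 0.533), near background with extract. Relative to the high-fat diet mean, the list median was -0.35, -0.49 and -0.21 in the extract arrays and -0.32, -0.69 and -0.51 in the regular-diet arrays. It remained between -0.47 and -0.34 when any 1 array was left out. The guanylate-binding proteins are a family of close copies, so these members may share signal.

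Promoters of Gbp3 and Isg15 are shown because members of this list had lower values together. The capitals mark GAAANNGAA, the core of the interferon-stimulated response element, on either strand, with overlapping matches joined. The windows are chr3:142559794-142560043 on the plus strand for Gbp3 and chr4:156200819-156201068 on the minus strand for Isg15, both GRCm38.p6 from RefSeq.

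Gbp3: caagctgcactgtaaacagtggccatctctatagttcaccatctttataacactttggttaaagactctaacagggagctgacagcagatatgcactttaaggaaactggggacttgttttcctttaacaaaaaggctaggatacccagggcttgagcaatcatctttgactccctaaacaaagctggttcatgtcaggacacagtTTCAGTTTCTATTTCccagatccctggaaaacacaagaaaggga

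Isg15: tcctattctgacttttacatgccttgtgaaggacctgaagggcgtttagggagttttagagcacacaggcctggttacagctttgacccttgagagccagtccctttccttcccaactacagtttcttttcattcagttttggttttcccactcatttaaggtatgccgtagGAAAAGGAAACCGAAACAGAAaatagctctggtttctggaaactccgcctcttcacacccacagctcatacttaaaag

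Gbp3 holds 2 matches, the first 44 bases before its start, and Isg15 holds 3, the first 78 bases before. The core was found in 9 of the 17 list members with a window (52.9%). Among them were Ifit1, Ifit3, Stat2, Rsad2 and Gbp7, all lower with extract, and Oas3, which was higher. Of all genes with a window, 8.18% held it. The list is made of interferon-induced genes, and a match describes the sequence only.

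**Figure D3:**
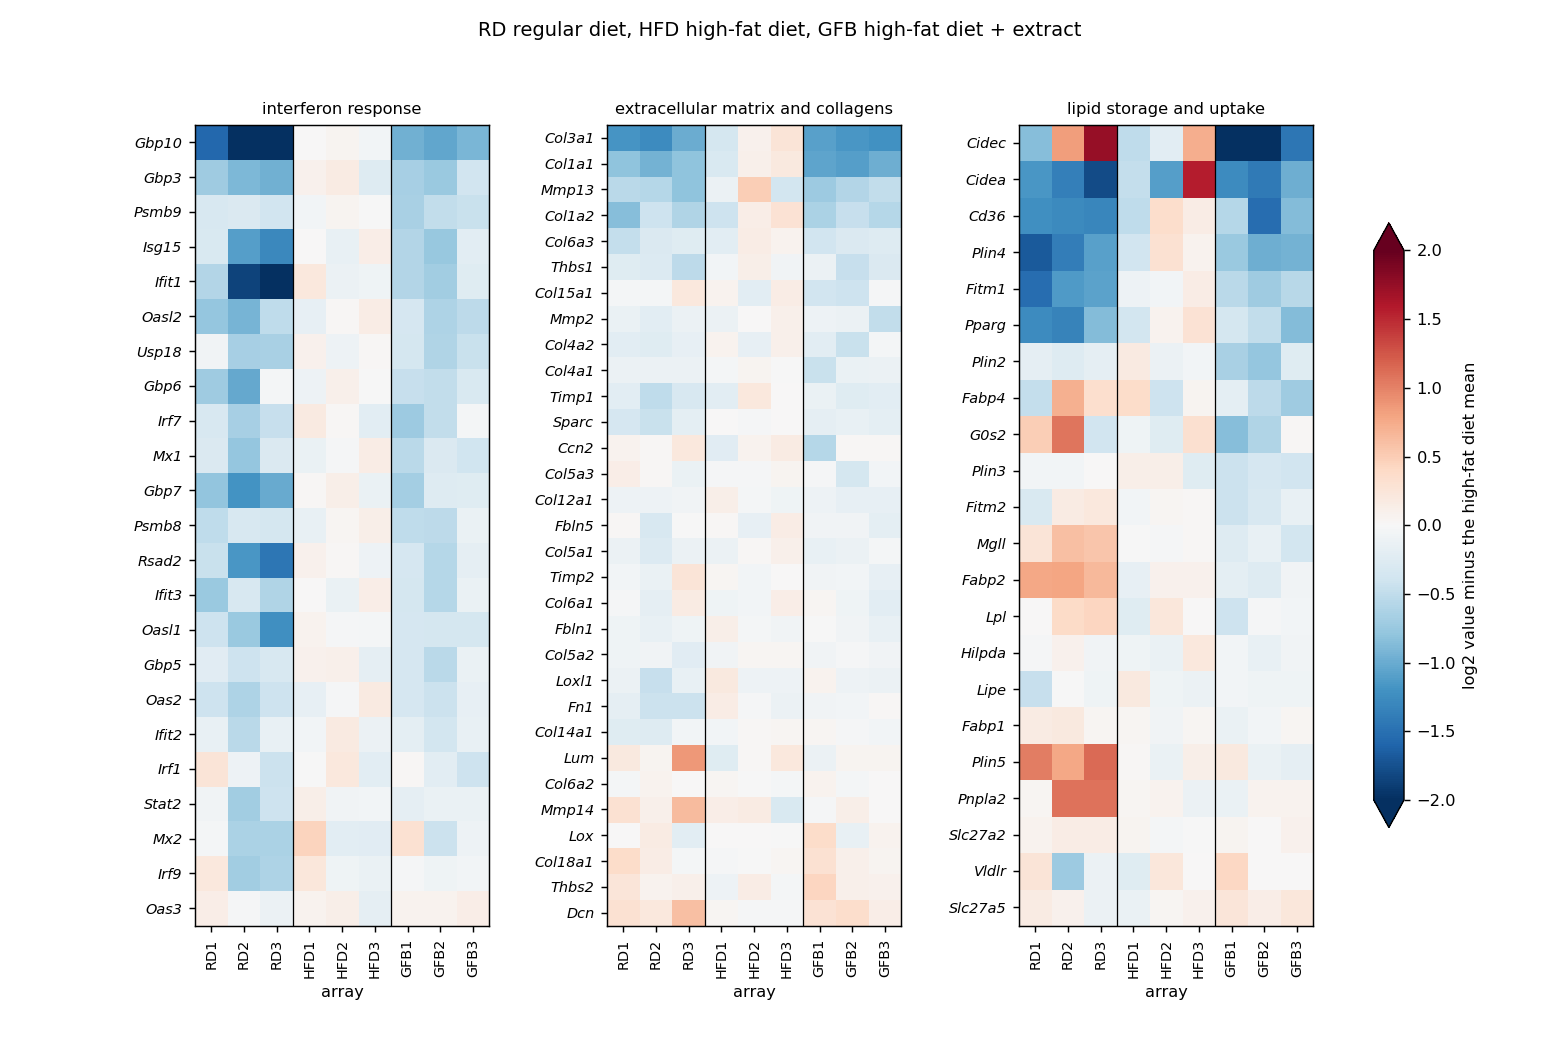
Colour gives the log2 value of each gene in each array minus its high-fat diet mean, for interferon response, extracellular matrix and lipid storage genes, with genes ordered by the difference with extract and colours cut at 2. RD is the regular diet, HFD the high-fat diet and GFB the high-fat diet with extract, and the extract mean is below the high-fat diet mean for 22 of 23 interferon genes, 24 of 31 matrix genes and 18 of 22 lipid genes, many of them faintly.

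Markers of immune cells were examined beside these genes. In bulk liver, fewer cells of a type and less RNA per cell cannot be told apart. Of 13 measured markers for macrophages that are lipid-associated or recruited, 12 were lower and 1 higher (median -0.32), 6 lower without overlap (46.2%, beside 5.27% of all genes), and their mean was 5.14 to 5.40 on the high-fat diet and 4.91 to 5.00 with extract. None passed, with 7 lower and 1 higher at an unadjusted p under 0.05. Gpnmb, a glycoprotein of lipid-laden macrophages, was 4.73, 4.97 and 5.23 against 4.47, 3.91 and 4.13 (-0.80 ± 0.18, limma adjusted p = 0.477), and Lgals3, galectin 3, was 6.08, 6.07 and 6.05 against 5.46, 5.83 and 5.74 (-0.39 ± 0.10). Atp6v0d2, a proton pump subunit, was the 1 higher, at 4.12, 5.61 and 4.92 against 5.90, 5.73 and 5.44. Many of these values were near background, and among the brighter members the median was -0.15.

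Resident Kupffer cell markers did not differ in one direction, with 7 higher and 5 lower of 12 (median 0.03) and means of 6.91 to 7.17 without extract and 6.77 to 7.29 with it. Neutrophil markers were under background in 9 of 11 cases, with means of 3.41 to 3.49 without extract and 3.41 to 3.55 with it. MHC class II genes were lower in 6 of 8 cases (median -0.16, or 0.00 without high-fat diet replicate 2), and all overlapped. Of 13 lymphocyte markers 8 were higher and 5 lower (median 0.03), 10 were under background in all arrays, and means were 4.07 to 4.24 and 3.95 to 4.12. The part of these cells in the interferon, chemokine and acute-phase values was not tested.

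Themis, a T cell development gene on the lymphocyte list, was lower in every extract array. It was 6.35, 6.66 and 6.87 on the high-fat diet, 4.74, 3.82 and 5.06 with extract and 3.82, 4.40 and 4.13 on the regular diet (-2.09 ± 0.29, limma adjusted p = 0.146). Extract values were at or near background, so the size of this difference is uncertain, and Cd3e, Cd3d, Cd3g, Cd4 and Cd8a, which define T cells, were below 4.74 in all 9 arrays. Lgals1, galectin 1, a glycan-binding protein of stromal and immune cells, was 8.32, 9.01 and 9.24 against 7.45, 6.72 and 7.48 (-1.64 ± 0.27, limma adjusted p = 0.242), with the regular diet at 6.49, 6.88 and 6.52.

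Col1a1, Col1a2 and Col3a1, genes of fibrillar collagens, were lower in every extract array. Col1a1, a chain of type I collagen, read 6.43, 6.84 and 6.92 on the high-fat diet and 5.68, 5.62 and 5.75 with extract, and 5.93, 5.79 and 5.93 on the regular diet. The extract arrays were the 3 lowest of the 9, and the difference of -1.05 ± 0.12 missed the threshold (limma adjusted p = 0.0851). Col3a1, type III collagen, was 6.84, 7.27 and 7.45 against 6.11, 6.02 and 5.98 (-1.15 ± 0.14, limma adjusted p = 0.0975), all 3 within the range of the regular-diet values of 6.01, 5.94 and 6.20. Without high-fat diet replicate 1, the lowest of its group for both, the adjusted p was 0.0112 for Col1a1 and 0.0125 for Col3a1. Among genes above the median brightness it was 0.0318 and 0.0439, and with array weights it was 0.0470 for Col1a1 and 0.0628 for Col3a1. Neither gene passed in a fit of only the 6 arrays compared, or with any other array left out. Col1a2, the partner chain of Col1a1, was 5.86, 6.40 and 6.55 against 5.64, 5.81 and 5.70 (-0.55 ± 0.18, limma adjusted p = 0.723), and its dimmer probe set differed by -0.24.

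The wider matrix list, which includes the collagens above, had mostly small differences. Of 31 measured genes of extracellular matrix and collagens 24 were lower and 7 higher (median -0.11), and none passed (8 lower and 1 higher at an unadjusted p under 0.05). Without overlap, 9 were lower (29.0%, beside 5.27% of all genes) and 2 higher (6.45%, beside 4.42%). The 9 include Col1a1, Col1a2 and Col3a1 described above, and Mmp13, Thbs1 and Col12a1, which lay under 4.74 in all arrays. The rest of the 9 were Col6a3, Col4a1 and Sparc, at -0.31, -0.23 and -0.17. Dcn, the small proteoglycan decorin, was the member with the largest higher value, at 9.80, 9.74 and 9.74 against 10.04, 10.12 and 9.90 (0.26 ± 0.11). Collagen is made mainly by stellate cells in liver, and markers of these cells were measured beside it. Of 15 markers 10 were higher and 5 lower, with means of 6.33 to 6.45 without extract and 6.52 to 6.62 with it. The median was 0.16, or 0.06 without high-fat diet replicate 1 and 0.10 without extract replicate 3. Without overlap, 4 were higher (26.7%, beside 4.42% of all genes) and 1 lower (6.67%, beside 5.27%). None passed (6 higher and 1 lower at an unadjusted p under 0.05). Lrat, which stores retinol in quiescent stellate cells, was 6.73, 6.88 and 6.62 against 7.33, 7.50 and 7.11 (0.57 ± 0.12, limma adjusted p = 0.427), and Hgf, hepatocyte growth factor, was 7.15, 6.97 and 6.92 against 7.29, 7.39 and 7.44 (0.36 ± 0.09). Vim, vimentin, was the 1 marker lower in every extract array (-0.35 ± 0.12). Its dimmer probe set differed by -0.13, and there the groups touched. Acta2 of activated stellate cells differed by -0.21 ± 0.20 with overlap. The part of these cells in the collagen values was not tested.

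Endothelial genes stood higher. Of 14 markers of liver endothelial cells 11 were higher and 3 lower (median 0.21), 4 higher without overlap (28.6%, beside 4.42% of all genes), with means of 6.81 to 7.02 without extract and 6.96 to 7.27 with it. On a list of 24 endothelial signalling and junction genes 18 were higher and 6 lower (median 0.16), 6 higher without overlap (25%), and neither list had a gene past the threshold (5 and 6 higher and 0 lower at an unadjusted p under 0.05). Like the other lists, this second list is not independent of earlier results of these data, from which its members Ramp1, Adgrl4 and Tmem47 were known. All of these are among its 6 genes without overlap, as is Kdr, which is counted on both lists. Ramp1, part of the receptor for calcitonin gene-related peptide, was 4.80, 4.74 and 4.78 against 5.25, 5.39 and 5.16 (0.49 ± 0.08, limma adjusted p = 0.242). Its receptor partner Calcrl was 6.71, 6.73 and 6.37 against 7.05, 7.05 and 6.92 (0.41 ± 0.12, limma adjusted p = 0.702). Kdr, the main receptor of vascular endothelial growth factor, was 7.57, 7.63 and 7.43 against 8.05, 8.05 and 7.81 (0.42 ± 0.11, limma adjusted p = 0.591), beside 7.90, 7.95 and 8.21 on the regular diet. Adgrl4, an adhesion receptor of vessels, was 5.90, 5.90 and 5.78 against 6.36, 6.50 and 6.18 (0.49 ± 0.09), and for Tmem47 a second, dimmer probe set did not show the difference of 0.58 seen in the first (-0.01).

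**Figure D4:**
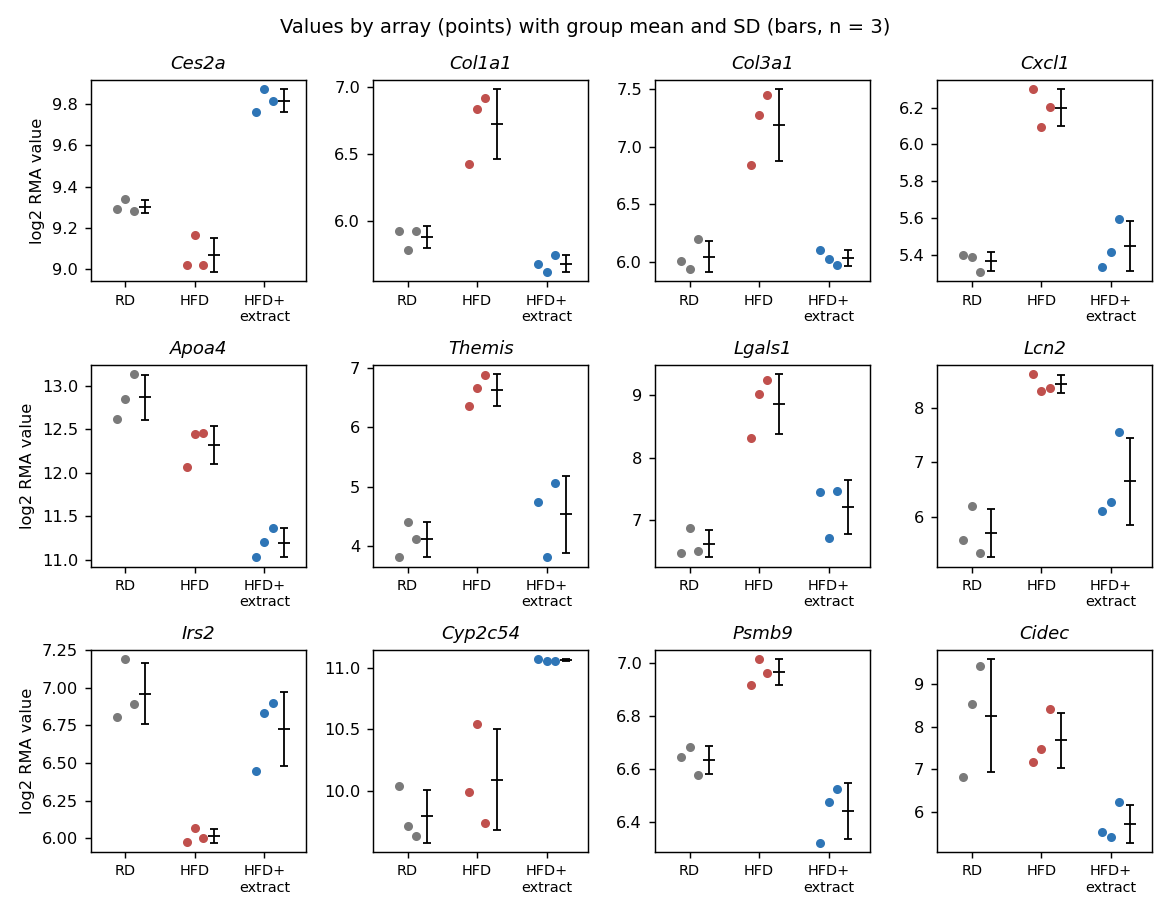
Log2 values of 12 genes in each array (points), with the group mean and SD (n = 3) for the regular diet (RD), the high-fat diet (HFD) and the high-fat diet with extract. Ces2a is highest with extract, Col1a1, Apoa4, Psmb9 and Cidec are lowest with extract, and Cxcl1 and Col3a1 lie near the regular diet, each panel having its own scale.

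The remaining leading genes came from scattered functions. Zfp982, a zinc finger gene with near-identical neighbours, was 6.30, 5.91 and 6.45 against 5.35, 4.98 and 5.07 (-1.08 ± 0.14, limma adjusted p = 0.127). Scamp5, a secretory vesicle protein, was 7.04, 6.93 and 7.05 against 6.02, 5.90 and 6.35 (-0.92 ± 0.15, limma adjusted p = 0.242). Cdk6, a kinase of cell cycle entry, was 7.67, 7.69 and 7.47 against 6.99, 6.94 and 7.07 (-0.61 ± 0.10, limma adjusted p = 0.242). Each of these 3 was lower in all extract arrays than in any other array of the series. Among the higher ones, Wsb1, a ubiquitin ligase adaptor, was 6.02, 6.07 and 6.29 against 6.72, 6.94 and 6.95 (0.74 ± 0.11, limma adjusted p = 0.146), and Colec10, a collectin made in liver, was 6.73, 6.44 and 6.18 against 7.36, 7.32 and 6.97 (0.77 ± 0.14, limma adjusted p = 0.325). Ocln, the tight junction protein occludin, was 6.38, 6.57 and 6.23 against 6.93, 6.97 and 6.83 (0.52 ± 0.11, limma adjusted p = 0.400), short of its regular-diet arrays at 7.37, 7.07 and 7.13. Slc16a10, a transporter of aromatic amino acids and thyroid hormone, was 8.13, 8.33 and 8.09 against 8.87, 8.73 and 8.55 (0.54 ± 0.11), beside regular-diet values of 8.56, 8.60 and 8.77. Avpr1a, the liver vasopressin receptor, had the largest higher value among the named genes, at 6.49, 6.19 and 5.68 against 7.94, 7.77 and 6.56 (1.31 ± 0.57, limma adjusted p = 0.829), with 1 regular-diet array at 7.77 and the others at 5.64 and 5.70.

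**Figure D5:**
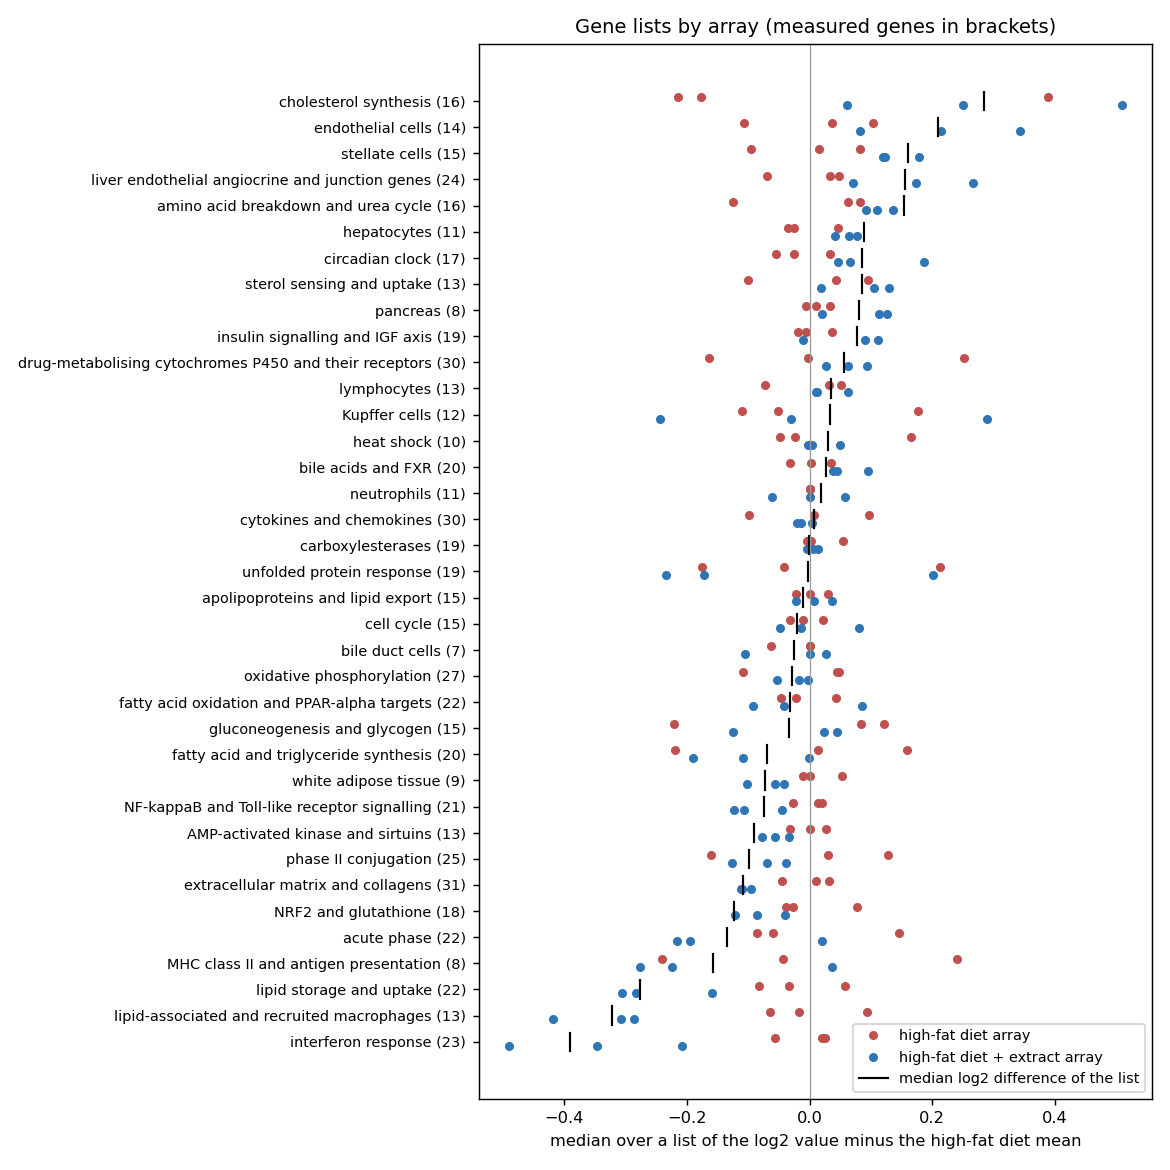
For each gene list, points give the median over its genes of the log2 value minus the high-fat diet mean in each high-fat diet array (red) and extract array (blue), and the bar gives the median log2 difference of the list. The interferon, macrophage and lipid storage lists have all 3 extract arrays below the high-fat diet arrays, whereas the cholesterol synthesis arrays of the 2 groups overlap.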

How the data were processed

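Liver RNA of 9 samples was measured on whole-transcript arrays. The deposited values are log2 expression per probe set, made by the authors with RMA (R package oligo, no version stated), per the submitters' processing notes. RMA quantile-normalizes arrays, so a shift shared by most genes would be removed. The sources used here name no genome build for the probe sets. Of the probe sets, 1814 had several symbols and 16010 none and were left out, and symbols of 21994 genes equalled RefSeq (GRCm38.p6), 186 had no match and 0 differed.

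A mean per group was fitted to all 9 arrays with limma 3.58.1 in R 4.3.3 (6 residual and 3.28 prior degrees of freedom), two-sided, with Benjamini-Hochberg adjustment and a threshold of 0.05. An exact permutation test of 3 against 3 arrays cannot go below 0.1. The diet and extract comparisons share the high-fat diet arrays. The procedure was tested on simulated data. Named genes were those that passed, the 12 smallest p-values and 10 largest differences in each direction among genes without overlap and above the median gene mean (predicted genes, small RNAs, receptor and immunoglobulin families left out), list members without overlap or among the 4 smallest p, and a set of liver genes. Genes named outside this rule, chosen after their values were seen, are Acta2, Adipoq, Ahr, Alb, Apoa1, Apob, Atp6v0d2, Cd3d, Cd3e, Cd3g, Cd8a, Lep, Ms4a4c, Mttp, Nr1i2, Nr1i3, Oas3, Orm2, Saa2 and Thrsp. The members and lists were chosen with earlier results of these data known. Alternatives were other moderation, brighter genes, mean of probe sets, quantile normalization, median shift, array weights, replicate block, the 6 arrays alone, a threshold of 0.10 and leaving out each array.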

Additional observations from a re-analysis of the deposited data

How the results depend on the processing

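The count of genes that passed was 1 and was 4 at an adjusted p under 0.10, 4 among genes above the median brightness, 3 with array weights, and 0 in a fit of only the 6 arrays compared (1386 at an unadjusted limma p under 0.05). With 1 array left out it ran from 0 to 3, and the 3 came without high-fat diet replicate 1 (Col1a1, Col3a1 and Ms4a4c). The other counts of 0 came with 1082 to 1470 genes at an unadjusted limma p under 0.05. Ces2a kept its direction everywhere but did not pass with the replicate block (0.75, limma adjusted p = 0.0942), in the fit of 6 arrays (0.75, limma adjusted p = 0.256) or with any 1 array left out (0.72 to 0.80). With the replicate block 1 gene, Apoa4, passed (limma adjusted p = 0.0328), but the numbers did not pair the samples (correlations of deviations from 0.0030 to 0.025). Among the other single genes named, Cyp2b9 turned from -0.93 to 0.039 without high-fat diet replicate 2 and ran from -2.385 to 0.039 with 1 array left out. List medians moved by less than the spread between arrays in 613 cases and by more in 32, and the cause was not tested. With 3 arrays a group the precision is limited, and genes below the chosen level of 4.74 may carry little signal.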

Other observations

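Stress and housekeeping programmes were near the level of all genes. Of 19 unfolded protein response genes 9 were higher and 10 lower with extract (median -0.0020) and all overlapped. Of 10 heat shock genes 7 were higher (median 0.03), and Hsph1, a co-chaperone, lay above the high-fat diet in every extract array (7.43, 6.78 and 7.44 against 7.74, 7.78 and 7.62, 0.50 ± 0.18, limma adjusted p = 0.767). The largest difference of that list was in Hspa1b, an inducible HSP70, at 6.11, 6.72 and 7.12 against 5.31, 5.82 and 6.69 (-0.71 ± 0.39, limma adjusted p = 0.852), with overlap. Oxidative phosphorylation genes gave 11 higher and 16 lower of 27 (median -0.03), and 15 cell cycle genes gave 7 higher and 8 lower (median -0.02). Of 13 genes of AMP-activated kinase and sirtuins 5 were higher and 8 lower (median -0.09), with Stk11, the kinase upstream of AMP-activated kinase, at 7.82, 7.82 and 7.94 against 8.10, 8.07 and 7.99 (0.19 ± 0.07, limma adjusted p = 0.777). Sirt5, a mitochondrial desuccinylase, was lower in every extract array (6.24, 6.33 and 6.52 against 5.94, 5.995 and 6.20, -0.32 ± 0.12, limma adjusted p = 0.793), as was Sirt6 (-0.11 ± 0.07).

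Antioxidant genes of the NRF2 and glutathione list were lower in 13 of 18 cases, 4 of them without overlap (22.2%, beside 5.27% of all genes). The median was -0.12, or -0.02 without high-fat diet replicate 2 and -0.06 without extract replicate 3. Srxn1, sulfiredoxin, was 7.37, 7.67 and 7.38 against 7.09, 6.97 and 7.31 (-0.35 ± 0.11, limma adjusted p = 0.723), and Nfe2l2, which encodes NRF2 itself, was 8.53, 8.67 and 8.31 against 8.18, 8.30 and 8.15 (-0.29 ± 0.10, limma adjusted p = 0.726). Of 17 clock genes 14 were higher and 3 lower (median 0.09), and Npas2, a partner of the clock activator, was 4.17, 3.80 and 4.10 against 4.77, 4.57 and 4.17, near background. Bile duct markers gave 2 higher and 5 lower of 7 (median -0.03) and pancreas markers 6 higher and 2 lower of 8 (median 0.08), with 5 of each below 4.74 in every array, and the single measured red blood cell marker, Slc4a1, differed by 0.03.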
